A study of Caenorhabditis elegans with 30 samples.

Results

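The right arm of chromosome II of Caenorhabditis elegans was described here by H3K9me3 and RNA polymerase II (Pol II) ChIP-seq in 5 strains. The arm was taken from the deposited table of 1-kb windows (genome build ce6) as the windows from 12021 kb to 100 kb before the last window of the chromosome, so no measured value entered the choice. The range held 3159 windows, of which 13 carried the table's mark for misannotated sequence and were left out. Of the 3146 members, 8 fell under a filter on low values and 3138 were analysed, which is 3.15% of the 99742 windows analysed over the genome. A window is named by its start in kb, and a range such as 12740 to 12747 kb ends where the window starting at 12747 kb begins.

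The hrde-1 mutants carried the allele tm1200 and the set-32 mutants the allele ok1457. The strain met-2(n4256);set-25(ok5021), met-2 set-25 for short, is called the double mutant below. The triple mutant joined these alleles of met-2 and set-25 with that of set-32, and N2 was the wild type (WT). All animals were whole young adults kept at 19 °C. They were fed OP50 bacteria, or bacteria making double-stranded RNA against gfp, a control with no target in these worms, or against the germline gene oma-1, with RNAi feeding kept up for about 3 generations. H3K9me3 was measured with OP50, gfp RNAi and oma-1 RNAi feeding (15 libraries), and Pol II with gfp RNAi and oma-1 RNAi (10 libraries). Each strain and feeding had 1 library, so the feedings stood in for replicates and p-values measure only the spread between these libraries. Chromatin came from whole animals, so fewer cells carrying a signal and less signal per cell cannot be told apart. According to the methods of the study, none of the mutated genes lies on chromosome II.

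H3K9me3, methylation of histone H3 at lysine 9, is the classic mark of heterochromatin, and in C. elegans it lies mostly in domains on the arms of the autosomes. MET-2 and SET-25 are H3K9 methyltransferases, and SET-32 is a related putative methyltransferase. HRDE-1 is a germline Argonaute protein that carries small RNAs to the nucleus and is needed there for H3K9me3 and for repression of transcription at its targets, many of them LTR retrotransposons. The Pol II antibody recognizes the phosphorylated C-terminal repeat (S2P) of the elongating enzyme, so the Pol II level of a window is a measure of transcription.

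H3K9me3 is given below as times the median of H3K9me3(−) windows, the windows between the 5th and 25th percentile of WT on OP50, and Pol II as RPKM. Estimated from the value of a single read, an H3K9me3 library held 2446000 to 7227000 aligned reads and a Pol II library 3816000 to 6783000. The median arm window then held 21 to 66.1 reads in the H3K9me3 libraries and 20 to 47 in the Pol II libraries. Among WT libraries, that on gfp RNAi had the highest H3K9me3(−) median. It was 6.13 RPKM, against 2.88 RPKM on OP50 and 4.37 RPKM on oma-1 RNAi, so that its enrichment over background was low. On gfp RNAi the double mutant (6.13 RPKM) and the triple mutant (6.09 RPKM) had similar medians. The H3K9me3(−) windows were chosen on the WT OP50 library itself, so its low median is in part set by that choice. At 12283 kb WT had 32.35 RPKM on OP50 and 21.16 RPKM on gfp RNAi, but 11.2 and 3.45 times background. Libraries also differed in a name prefix that the labels do not explain. All WT, hrde-1 and double mutant libraries shared 1 prefix, whereas those of set-32 and the triple mutant had others, so that prefix and strain cannot be told apart in their comparisons with WT.

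The first question was how the arm as a whole was marked. The median window of the arm had 2.15, 1.9 and 1.64 times background in hrde-1 mutants (OP50, gfp RNAi and oma-1 RNAi), 1.9, 2.05 and 2.07 in set-32, 2.1, 1.44 and 1.81 in the double mutant, 1.52, 1.5 and 1.33 in the triple mutant, and 2.44, 1.36 and 1.86 in WT. The WT libraries on their own spanned the values of all mutant libraries but that of the triple mutant on oma-1 RNAi. The median was therefore 1.9 ± 0.256 in hrde-1, 2.01 ± 0.0916 in set-32, 1.78 ± 0.329 in the double mutant, 1.45 ± 0.103 in the triple mutant and 1.89 ± 0.541 in WT (SD, n = 3 each). Every mutant overlapped WT, with two-sided exact permutation p = 1.0, 0.7, 0.9 and 0.3 in the same order of mutants (0.1 is the smallest p that 3 against 3 can give). Relative to depth alone the order was different, and the median of the triple mutant was 8.99 ± 0.209 RPKM against 7.85 ± 0.706 RPKM in WT (SD, n = 3 each).

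The mutants differed more in the highly marked windows than in the median window. The share of arm windows at 4 times background or more was 11.5%, 4.62% and 4.75% in hrde-1 (OP50, gfp RNAi and oma-1 RNAi), 3.35%, 5.96% and 10.8% in set-32, and 5.26%, 0.0319% and 1.08% in the double mutant. In the triple mutant it was 0.0319%, 0.0637% and 0%, which is 1, 2 and 0 windows, against 22.1%, 1.12% and 7.71% in WT, which is 693, 35 and 242 windows. The triple mutant was thus below WT in every feeding and its libraries did not overlap those of WT (exact permutation p = 0.1, the smallest possible, and 0.933 after Benjamini-Hochberg adjustment over 28 tests of arm levels). In the other mutants at least 1 library overlapped WT.

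The arm was the less marked arm of its chromosome. Its median was 0.696 to 0.85 times that of the left arm (4784 windows) in the 15 H3K9me3 libraries, below 1 in all of them, and 0.749 ± 0.052 in WT (SD, n = 3). In WT on OP50 the right arm had 2.44 times background, against 3.51 in the left arm, 1.78 in the right end of chromosome III and 5.89 in the right end of chromosome V. The top 5% of windows by WT on OP50, called H3K9me3(+), made up 3.73% of the right arm, 14.4% of the left arm and 0.493% of the center of chromosome II.

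The right arm was also set against the center of the chromosome (7101 windows). The ratio of the arm's median to that of the center was lower in the double mutant and the triple mutant than in WT, at 0.954, 0.975 and 1.03 in the double mutant (OP50, gfp RNAi and oma-1 RNAi) and 0.945, 1.0 and 0.97 in the triple mutant, against 1.22, 1.05 and 1.18 in WT. Neither mutant overlapped WT (exact permutation p = 0.1, the smallest possible, and 0.933 after adjustment over 28 tests). In hrde-1 and set-32 the ratio was 1.14 ± 0.0223 and 1.16 ± 0.0161, against 1.15 ± 0.0875 in WT (SD, n = 3 each; exact permutation p = 0.9 and 1.0).

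Pol II was higher in the right arm than in the left arm. The median arm window had 6.71 and 5.24 RPKM in hrde-1 (gfp RNAi and oma-1 RNAi), 6.36 and 6.14 RPKM in set-32, 7.31 and 5.89 RPKM in the double mutant, 7.66 and 6.93 RPKM in the triple mutant, and 5.91 and 5.53 RPKM in WT. Both set-32 and both triple mutant libraries were above both WT libraries (exact permutation p = 0.333 for each, the smallest that 2 against 2 can give, and 1.0 after adjustment). The mean over the windows differed less, being 10.6 ± 0.00921 RPKM in the triple mutant and 10.6 ± 0.54 RPKM in WT (SD, n = 2 each). The arm's median was 1.24 to 1.82 times that of the left arm in all 10 libraries, and 1.0 to 1.33 times that of the center, above 1 in 9 of 10. With means over windows the arm had 0.767 to 0.924 times the center, below 1 in all 10, so that the direction against the center depended on the measure.

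**Figure D1:**
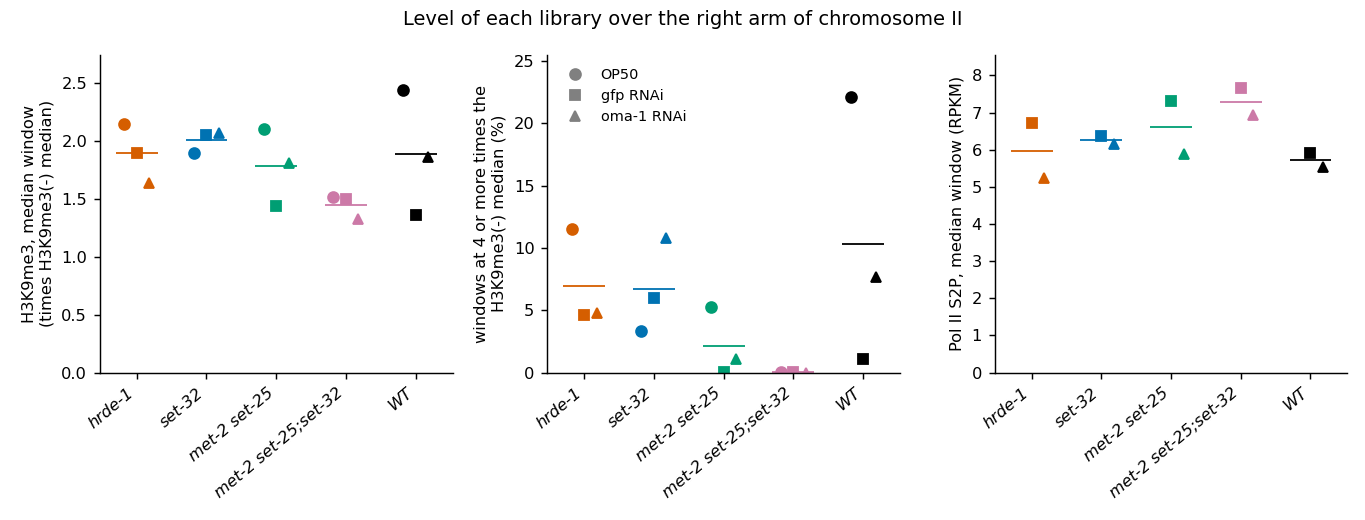
Levels of the arm in each library, for the 4 mutants and then WT on the x axis: the median H3K9me3 in times background, the percent of windows at 4 times background or more, and the median Pol II in RPKM. Points are single libraries (circles OP50, squares gfp RNAi, triangles oma-1 RNAi) and lines are means; the triple mutant has at most 2 windows at 4 times background in a library, against 35 to 693 windows in WT, and the WT libraries are the most spread.

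Along the arm the 2 marks alternated. In 32 bins of 100 kb the WT median of H3K9me3, averaged over feedings, ran between 0.952 (12021 to 12121 kb) and 3.28 times background (14621 to 14721 kb). The 5 bins under 1.2 times background had WT Pol II medians of 9.28 to 11.7 RPKM, and the 9 bins at 2 or more had 2.41 to 4.87 RPKM. Over the 32 bins, Spearman's rho between the marks was −0.871 and Pearson's r −0.743. Over the arm's single windows rho was −0.441, close to −0.428 over all windows of the genome. Pearson's r was weaker over single windows, at −0.122 in the arm and −0.0256 over the genome. These are descriptions of neighbouring windows read from the same libraries, and windows are not independent. In the mean of feedings the triple mutant had less H3K9me3 than WT in all 32 bins (0.567 to 0.946 times WT). It had the lowest level of all 5 strains in 30 of them. In the same mean the other mutants lay on both sides of WT, with the double mutant below it in 23 bins, hrde-1 in 14 and set-32 in 8. On gfp RNAi alone the triple mutant also lay on both sides of WT. It had 1.86 against 1.45 in WT at 12321 to 12421 kb, and 0.818 against 0.912 at 12021 to 12121 kb.

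The bin with most Pol II, 14321 to 14421 kb, was an exception to the alternation at the scale of its windows. Its WT median was 18.6 RPKM, and it also holds the domain of 14322 to 14337 kb, in which H3K9me3 was 12.2, 9.56 and 10.1 times background in hrde-1 (OP50, gfp RNAi and oma-1 RNAi), 6.06, 6.03 and 7.94 in set-32, 4.22, 2.6 and 3.34 in the double mutant, 2.57, 2.38 and 2.07 in the triple mutant, and 21.0, 5.53 and 11.4 in WT. Pol II in the same domain was 53.5 and 46.7 RPKM in hrde-1 (gfp RNAi and oma-1 RNAi), 44.3 and 42.8 in set-32, 21.2 and 20.9 in the double mutant, 33.1 and 33.9 in the triple mutant, and 35.7 and 39.1 in WT. H3K9me3 and elongating Pol II were therefore both high in these windows in WT, hrde-1 and set-32. The domain also held the single arm window with lower Pol II in the double mutant, described below.

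**Figure D2:**
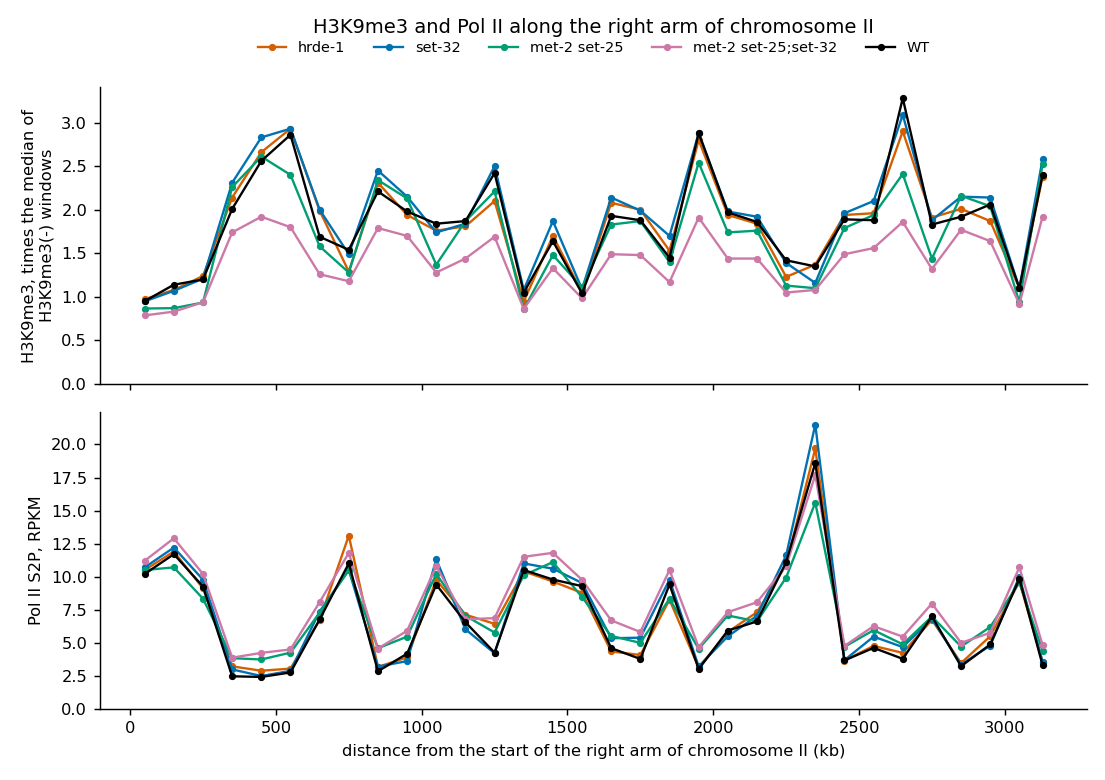
Median H3K9me3 in times background (top) and median Pol II in RPKM (bottom) in each of 32 bins of 100 kb, against the distance from the start of the arm in kb, with 1 line for each strain (mean of its feedings). The peaks of H3K9me3, up to 3.28 in WT, lie at dips of Pol II, and in these means of feedings the triple mutant is below WT in all 32 bins.

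In the mean of the 3 WT libraries, 289 arm windows (9.21%) were at 4 times background or more, against 9.38% of all windows and 24.9% of the left arm. They formed 109 domains with a median length of 2 kb, of which 54 were single windows and 15 were 5 kb or longer, up to 16 kb. The domains of 12740 to 12755 kb and 13244 to 13260 kb were also among the longest and both hold loci of the nuclear RNAi pathway described below. The domain of 14656 to 14671 kb does not, and its H3K9me3 was 5.06, 3.64 and 4.12 times background in hrde-1, 3.39, 4.31 and 5.07 in set-32, 3.02, 1.83 and 2.81 in the double mutant, 2.22, 1.82 and 1.83 in the triple mutant, and 9.63, 3.09 and 4.98 in WT (OP50, gfp RNAi and oma-1 RNAi). Its Pol II was 6.52 and 4.7 RPKM in hrde-1 (gfp RNAi and oma-1 RNAi), 9.44 and 8.29 in set-32, 6.75 and 5.78 in the double mutant, 11 and 10.2 in the triple mutant, and 5.6 and 4.5 in WT. The triple mutant thus had the least H3K9me3 and the most Pol II of the 5 strains there.

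Each window was then tested with limma on log2(value + 1) over all windows of the genome, with strain and feeding as terms, and called lower or higher at an adjusted p under 0.05 (Benjamini-Hochberg over 99742 windows) and at least 2-fold. On this scale the changes of low windows are understated. In hrde-1 mutants 52 arm windows had lower H3K9me3 than in WT (1.66%, background 0.651% of all windows). In set-32 the count was 31 (0.988%, background 0.47%). In the double mutant it was 187 (5.96%, background 6.08%), and in the triple mutant 288 (9.18%, background 9.2%). The shares of the double mutant and the triple mutant were near those of the whole genome, and nothing particular to the arm can be read from them. The counts moved with single WT libraries: without the WT library on gfp RNAi they were 76, 85, 322 and 483 in the order hrde-1, set-32, the double mutant and triple mutant, and without the WT library on OP50 they were 39, 7, 94 and 168. The count of set-32 was 18 without its own library on OP50. On depth alone both the double mutant and the triple mutant had 113 lower windows.

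Gains of H3K9me3 were seldom called. In the triple mutant limma called 1 arm window higher (background 0.013%), at 13572 kb, where H3K9me3 was 0.774, 1.09 and 0.688 times background in the triple mutant and 0, 0.705 and 0.368 in WT (OP50, gfp RNAi and oma-1 RNAi), all at or near background. In hrde-1, set-32 and the double mutant limma called 0, with 81, 108 and 84 windows higher at an unadjusted p under 0.05. At most 11 arm windows were called higher in a mutant under any alternative tried.

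The triple mutant was also compared with the strains it combines. Against set-32 it had lower H3K9me3 in 154 arm windows (4.91%, background 5.18%). Against the double mutant it had lower H3K9me3 in 2 windows (0.0637%, background 0.0742%), so that adding the set-32 mutation to the double mutant gave few calls at this depth. At 13822 kb H3K9me3 was 0.804, 1.01 and 0.793 times background in the triple mutant and 2.49, 1.57 and 2.56 in the double mutant (log2 −1.14, SE 0.26, limma adjusted p = 0.0149). At 14984 kb it was 0.387, 0.795 and 0.635 in the triple mutant and 1.95, 0.814 and 1.66 in the double mutant (log2 −1.02, SE 0.24, limma adjusted p = 0.0348). The libraries of the strains did not overlap at either window, but at 14984 kb they were nearly equal on gfp RNAi (0.795 and 0.814). At an unadjusted limma p under 0.05, 216 arm windows were lower in the triple mutant than in the double mutant and 34 higher. The median log2 difference was −0.22 over the arm and −0.26 over the genome.

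The calls were spread unevenly along the arm. Those of set-32 lay in 8 of the 32 bins, with 8 calls in the bin of 12121 to 12221 kb. Those of the double mutant lay in 23 bins and those of the triple mutant in 28, and in both the bin with most calls, 22 and 30, was the Pol II-rich bin of 14321 to 14421 kb. Runs of at least 3 called windows numbered 8 in hrde-1 (48 windows), 6 in set-32 (25), 20 in the double mutant (134) and 31 in the triple mutant (230). The longest run in the triple mutant held 30 called windows between 14305 and 14337 kb.

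The deposited table marks windows of germline nuclear RNAi-dependent heterochromatin (GRH) and of germline nuclear RNAi-dependent transcriptional silencing (GRTS). The study's group chose these windows from earlier profiles of hrde-1 mutants, so they are not independent evidence of what hrde-1 mutants do here, whereas the values of set-32, the double mutant and the triple mutant did not enter the marks. The arm held 24 of 215 GRH windows (11.2%) and 10 of 191 GRTS windows (5.24%), against 3.15% of all windows. Of these 6 carried both marks, and the 28 marked windows formed 9 loci.

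H3K9me3 at the 28 marked windows was called lower at all of them in the double and the triple mutant, at most of them in hrde-1 and at fewer in set-32. Their median was 1.42, 1.47 and 1.43 times background in hrde-1 (OP50, gfp RNAi and oma-1 RNAi), 2.89, 3.22 and 4.7 in set-32, 2.56, 1.69 and 2.23 in the double mutant, 1.6, 1.61 and 1.33 in the triple mutant, and 13.3, 3.51 and 7.43 in WT. Called lower were 24 of 28 in hrde-1 (85.7%, background 0.651%), 12 of 28 in set-32 (42.9%, background 0.47%), and 28 of 28 in the double mutant (100%, background 6.08%) and in the triple mutant (100%, background 9.2%). The median log2 difference from WT was −1.96 in hrde-1, −0.97 in set-32, −1.60 in the double mutant and −2.02 in the triple mutant, against 0.03, 0.07, −0.06 and −0.24 over all arm windows in the same order. The 96 H3K9me3(+) windows of the arm without a mark, themselves chosen on WT on OP50, were set beside these counts. Of them 11.5% were called lower in hrde-1, 7.29% in set-32, 81.2% in the double mutant and 96.9% in the triple mutant. The losses in the double and the triple mutant were thus shared by most highly marked windows of the arm. On gfp RNAi, where WT itself was low, 15 of the 28 windows with a GRH or GRTS mark were below WT in set-32, against 28 of 28 on OP50 and on oma-1 RNAi.

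Pol II at the same windows, themselves chosen from earlier hrde-1 profiles, was highest in hrde-1 by the median. Its median was 18.8 and 26.2 RPKM in hrde-1 (gfp RNAi and oma-1 RNAi), 6.47 and 5.03 in set-32, 7.51 and 6.83 in the double mutant, 11 and 10.6 in the triple mutant, and 6.97 and 6.7 in WT. Called higher were 19 of 28 in hrde-1 (67.9%, background 0.464%), 2 of 28 in set-32 (7.14%, background 0.704%), 0 of 28 in the double mutant (background 0.299%) and 4 of 28 in the triple mutant (14.3%, background 1.85%). The median log2 difference was 1.43 in hrde-1, −0.12 in set-32, −0.10 in the double mutant and 0.54 in the triple mutant, against −0.01, 0.06, 0.11 and 0.24 over the arm. All 10 GRTS windows were higher in hrde-1, 1 in set-32, 0 in the double mutant and 3 in the triple mutant. Not every locus set hrde-1 apart from set-32. At 13185 to 13187 kb Pol II was 22.3 and 31.4 RPKM in hrde-1 and 37.3 and 31.9 in set-32 (gfp RNAi and oma-1 RNAi). Set-32 was also near hrde-1 at 12283 kb and above it at 14314 to 14318 kb, as given below.

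The 5-window locus of 13245 to 13250 kb, with 4 GRH and 4 GRTS windows, lay in the run with the largest change of Pol II on the arm. H3K9me3 was 1.85, 1.96 and 1.82 times background in hrde-1 (OP50, gfp RNAi and oma-1 RNAi), 3.8, 4.07 and 5.36 in set-32, 3.0, 1.87 and 2.59 in the double mutant, 1.64, 1.85 and 1.48 in the triple mutant, and 15, 3.86 and 7.91 in WT. All 5 windows were called lower in hrde-1, the double mutant and the triple mutant (mean log2 −1.93, −1.59 and −2.09) and 0 of 5 in set-32 (−0.80). Pol II was 55.9 and 72.8 RPKM in hrde-1 (gfp RNAi and oma-1 RNAi), 5.93 and 4.83 in set-32, 9.9 and 8.08 in the double mutant, 12.7 and 12.9 in the triple mutant, and 5.68 and 4.95 in WT. All 5 windows were called higher in hrde-1 (mean log2 3.30) and 3 of 5 in the triple mutant (1.11). At the window of 13248 kb Pol II was 72.9 and 92.7 RPKM in hrde-1, against 3.46 and 4.61 RPKM in WT (log2 4.06, limma adjusted p = 1.58e-10). Losses of H3K9me3 were thus similar in hrde-1 and the triple mutant, and the Pol II levels of these strains did not overlap. The marked windows were chosen from earlier hrde-1 profiles, so the Pol II level of hrde-1 here is a description only.

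A stretch of 4 windows shortly before this locus, 13239 to 13243 kb, was at or near 0 in hrde-1 in both marks. Over these windows H3K9me3 averaged 0.00283 to 0.0256 times background in the 3 hrde-1 libraries, against 1.82 to 3.91 in the 12 others. Pol II averaged 0 to 0.0075 RPKM in the 2 hrde-1 libraries, against 2.12 to 4.58 RPKM in the 8 others. Whether this sequence is missing from the hrde-1 strain was not tested, and no fold change is given for it. Its part in the values of the neighbouring locus was not tested. Without the stretch and 1 window on each side of it, 46 arm windows had lower H3K9me3 in hrde-1.

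**Figure D3:**
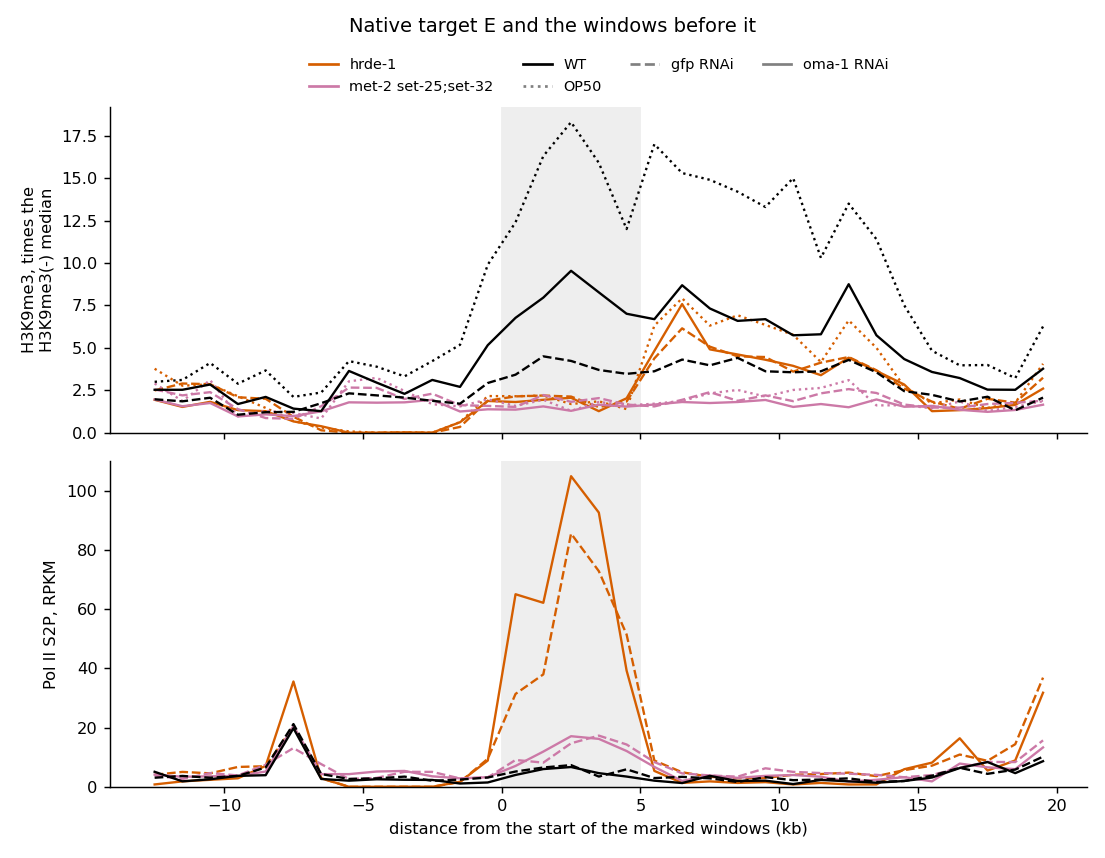
H3K9me3 in times background and Pol II in RPKM in the 1-kb windows around locus E of 13245 to 13250 kb, in each library of hrde-1, the triple mutant and WT, against the distance from the start of the marked windows in kb (grey, GRH or GRTS windows). Both marks are at or near 0 in hrde-1 shortly before the marked windows, where the 12 other H3K9me3 libraries average 1.82 to 3.91, and Pol II over the marked windows is 55.9 to 72.8 RPKM in hrde-1 against 4.95 to 5.68 RPKM in WT.

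At 12740 to 12747 kb (7 GRH windows) H3K9me3 in hrde-1 fell further below WT than at the other 8 loci. H3K9me3 was 1.16, 1.16 and 1.23 times background in hrde-1 (OP50, gfp RNAi and oma-1 RNAi), 3.12, 3.79 and 4.99 in set-32, 2.52, 1.65 and 2.4 in the double mutant, 1.56, 1.46 and 1.25 in the triple mutant, and 16.8, 4.18 and 8.75 in WT. Called lower were 3 of 7 windows in set-32 (mean log2 −1.14) and all 7 in hrde-1 (−2.64), the double mutant (−1.85) and the triple mutant (−2.40). Pol II was 20.5 and 22.0 RPKM in hrde-1 (gfp RNAi and oma-1 RNAi), 6.5 and 5.86 in set-32, 8.09 and 7.7 in the double mutant, 12 and 12 in the triple mutant, and 8.4 and 7.5 in WT. It was called higher in 5 of 7 windows in hrde-1 (mean log2 1.32) and in 1 of 7 in the triple mutant (0.53). Both Pol II calls of this locus were lost under at least 1 alternative that left out a library.

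The locus of 14983 to 14987 kb (3 marked windows) had the lowest Pol II of the loci in WT. H3K9me3 was 1.62, 1.37 and 1.35 times background in hrde-1, 2.55, 3.17 and 3.68 in set-32, 3.32, 1.78 and 2.57 in the double mutant, 1.98, 2.03 and 1.6 in the triple mutant, and 15.1, 3.25 and 7.15 in WT (OP50, gfp RNAi and oma-1 RNAi). Pol II was 10.9 and 24.1 RPKM in hrde-1 (gfp RNAi and oma-1 RNAi), 3.64 and 2.93 in set-32, 4.13 and 2.8 in the double mutant, 6.82 and 3.98 in the triple mutant, and 2.68 and 2.57 in WT. All 3 marked windows were called higher in hrde-1 (mean log2 2.23) and 0 in the triple mutant (0.78). The Pol II call of this locus in hrde-1 was lost under at least 1 alternative that left out a library.

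The single GRH and GRTS window of 12283 kb was 1 of 2 loci with Pol II called higher in set-32 as well as in hrde-1. H3K9me3 was 2.06, 1.46 and 1.68 times background in hrde-1, 1.45, 1.59 and 1.77 in set-32, 1.53, 1.09 and 1.55 in the double mutant, 1.03, 1.17 and 1.07 in the triple mutant, and 11.2, 3.45 and 6.62 in WT (OP50, gfp RNAi and oma-1 RNAi), and it was called lower in all 4 mutants (log2 −1.78, −1.87, −2.06 and −2.35). Pol II was 31.2 and 33.2 RPKM in hrde-1 (gfp RNAi and oma-1 RNAi), 30.1 and 28.9 in set-32, 8.11 and 7.17 in the double mutant, 22.4 and 26.4 in the triple mutant, and 11.3 and 13.6 in WT. The rise passed the test in hrde-1 (log2 1.31, SE 0.22, limma adjusted p = 0.00118) and set-32 (log2 1.19, limma adjusted p = 0.00194). In the triple mutant the log2 difference was 0.92 (limma adjusted p = 0.0232), under the 2-fold limit, and in the double mutant it was −0.64 (limma adjusted p = 0.255). Both double mutant libraries were below both WT libraries. The call in set-32 was lost under at least 1 alternative that left out a library.

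The other loci fell between these patterns. At 13123 to 13125 kb (2 windows) Pol II was 12.1 and 15.8 RPKM in hrde-1 against 6.2 and 6.02 RPKM in WT, with 1 of 2 windows called. At 13185 to 13187 kb H3K9me3 was called lower in both windows in all 4 mutants and Pol II in none, at 22.3 and 31.4 RPKM in hrde-1 against 22.3 and 22.6 RPKM in WT. A low Pol II level in WT was therefore not shared by all the loci. At 14314 to 14318 kb (4 windows) Pol II was 16.4 and 16.2 RPKM in hrde-1, 18 and 18.6 in set-32, 7.73 and 7.56 in the double mutant, 15.9 and 13.1 in the triple mutant, and 9.55 and 9.43 in WT, with 1 of 4 windows called higher in hrde-1 and in set-32. As at 12283 kb, the strains above WT there included set-32 and the triple mutant but not the double mutant.

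At 14314 to 14318 kb H3K9me3 was called lower in hrde-1 in 3 of 4 windows, and at the remaining loci it was also not called lower in every marked window, although Pol II was called higher there. At 14143 to 14146 kb (3 windows) Pol II was 22.8 and 34.7 RPKM in hrde-1, 5.68 and 5.12 in set-32, 5.84 and 4.97 in the double mutant, 7.71 and 8.5 in the triple mutant, and 8.11 and 7.63 in WT (mean log2 1.69 in hrde-1, 2 of 3 windows called). The window of 14143 kb had H3K9me3 of 0.925, 0.735 and 0.666 times background in hrde-1 (log2 −2.67), while that of 14145 kb had 10.0, 7.75 and 7.88 in hrde-1 against 21.7, 5.51 and 11.1 in WT (log2 −0.37, limma adjusted p = 1.0). At the GRTS window of 15002 kb H3K9me3 was 4.39, 4.17 and 3.52 in hrde-1 against 12.4, 3.91 and 7.85 in WT (log2 −0.83, SE 0.33, limma adjusted p = 0.494), and Pol II was 19.2 and 29.3 RPKM in hrde-1 against 5.5 and 3.69 RPKM in WT (log2 2.16, SE 0.31, limma adjusted p = 0.00013). In the triple mutant the same window had lower H3K9me3 (2.97, 2.66 and 2.29, log2 −1.40, limma adjusted p = 0.000313) and Pol II of 3.63 and 5.6 RPKM (log2 0.0, limma adjusted p = 0.998). Of the 5 strains, the one with the least H3K9me3 at 15002 kb and the one with the most Pol II there were thus different strains. The GRTS mark of this window came from earlier hrde-1 profiles, so this is a description only.

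**Figure D4:**
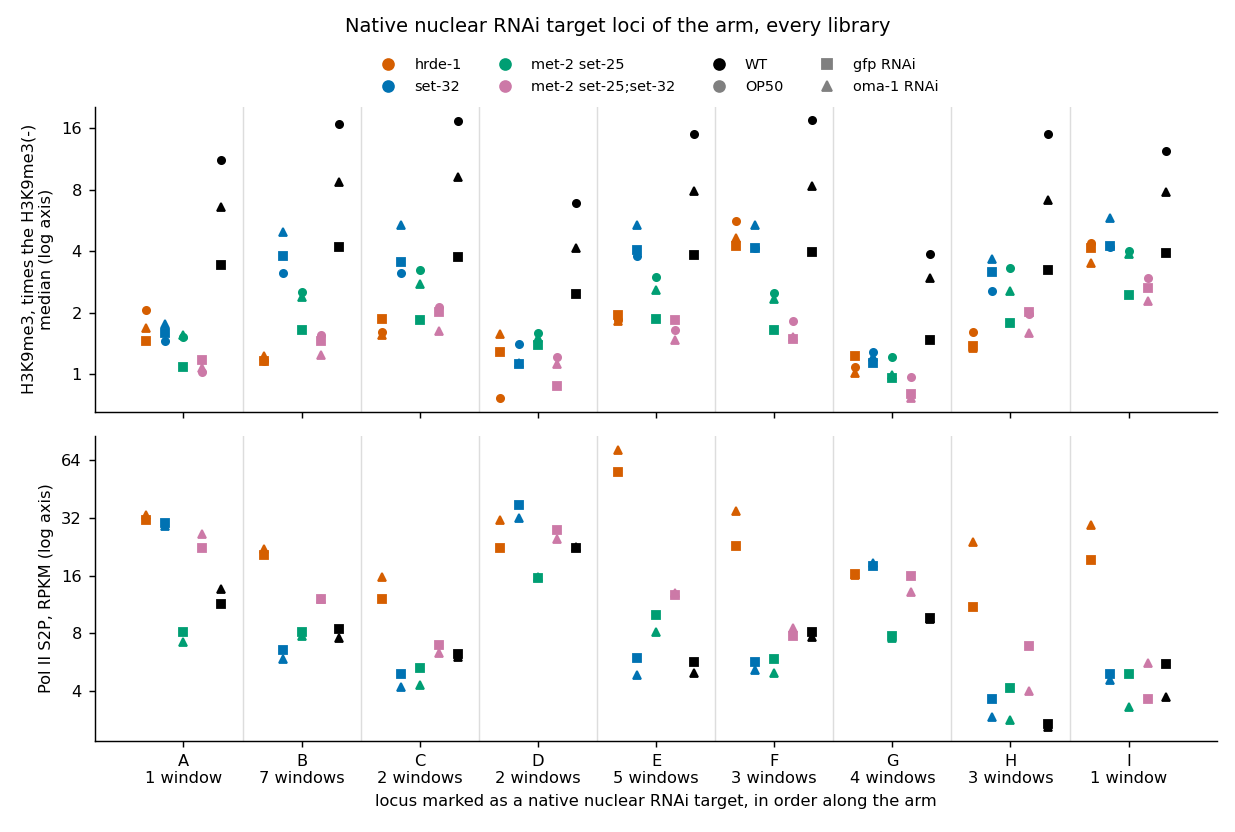
Mean over windows of H3K9me3 in times background (top, log axis) and of Pol II in RPKM (bottom, log axis) at the 9 loci of GRH and GRTS windows, A to I in their order along the arm, with 1 point for each library of hrde-1, set-32, the double mutant, the triple mutant and WT. H3K9me3 of the triple mutant is below WT at all 9 loci, while Pol II of hrde-1 is above all other strains at loci such as E (13245 to 13250 kb, 55.9 and 72.8 RPKM in hrde-1).

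The double and the triple mutant also had runs of lower H3K9me3 at which hrde-1 had none. At 13106 to 13111 kb H3K9me3 was 7.39, 6.3 and 6.59 times background in hrde-1, 3.08, 3.73 and 4.53 in set-32, 1.33, 1.2 and 1.17 in the double mutant, 1.31, 1.29 and 1.18 in the triple mutant, and 9.01, 2.75 and 5.5 in WT (OP50, gfp RNAi and oma-1 RNAi). The mean log2 difference from WT was −1.76 over the 5 called windows of the double mutant. Pol II was 10.8 to 13.0 RPKM there in the libraries of all strains. At 14142 to 14150 kb, which includes the marked windows of the locus above, H3K9me3 was 7.35, 5.72 and 6.0 in hrde-1, 4.16, 4.41 and 5.6 in set-32, 2.3, 1.53 and 2.21 in the double mutant, 1.78, 1.52 and 1.44 in the triple mutant, and 14.9, 3.66 and 7.38 in WT (mean log2 −1.73 in the double mutant and −2.04 in the triple mutant). At 14369 to 14372 kb it was 5.92, 4.48 and 5.22 in hrde-1 and 2.18, 1.5 and 1.67 in the double mutant, against 13.7, 3.58 and 6.34 in WT (mean log2 −1.80 in the double mutant).

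One unmarked region lost H3K9me3 in every mutant. At 12151 to 12159 kb H3K9me3 was 1.92, 2.15 and 1.89 times background in hrde-1, 1.52, 1.78 and 1.8 in set-32, 1.15, 0.971 and 0.882 in the double mutant, 0.985, 0.934 and 0.962 in the triple mutant, and 7.46, 2.48 and 4.83 in WT (OP50, gfp RNAi and oma-1 RNAi). Each mutant was below WT in every feeding. The region was called over 8 windows in set-32 (mean log2 −1.30). This call was lost under at least 1 alternative that left out a library or feeding. The region lay within a called run of 12149 to 12161 kb in the double mutant (−1.83) and of 12150 to 12162 kb in the triple mutant (−1.81). It also held the only run of hrde-1 (12151 to 12156 kb) without a GRH or GRTS window. Pol II was 13.8 and 15.3 RPKM in hrde-1, 18.8 and 18.9 in set-32, 12.4 and 14.3 in the double mutant, 17.2 and 18 in the triple mutant, and 13.4 and 17.8 in WT, so that both set-32 libraries were above both WT libraries and the other strains overlapped WT.

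The 117 H3K9me3(+) windows of the arm were chosen on WT on OP50, so only the other feedings are given. Their median ratio to WT on gfp RNAi and oma-1 RNAi was 1.28 and 0.778 in hrde-1, 1.19 and 0.816 in set-32, 0.536 and 0.393 in the double mutant, and 0.543 and 0.254 in the triple mutant. Over the 5031 H3K9me3(+) windows of the genome the ratios were 1.39 and 0.835 in hrde-1, 1.18 and 0.814 in set-32, 0.553 and 0.399 in the double mutant, and 0.545 and 0.256 in the triple mutant. The arm was close to the genome in each. On both feedings the ratio was under 1 in the double mutant and the triple mutant, and in hrde-1 and set-32 it was so on oma-1 RNAi only.

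Loss of H3K9me3 and gain of Pol II were then set side by side. In the 187 windows with lower H3K9me3 in the double mutant the median log2 difference of Pol II was 0.03, against 0.11 over the arm. Of the 187, 0 were called higher (0.191% over the arm, background 0.299%) and 1 lower (0.0319% over the arm, background 0.136%). With shares this small, 0 higher calls say nothing particular about these windows. Their median Pol II was 9.03 and 9.11 RPKM in the double mutant (gfp RNAi and oma-1 RNAi) and 9.9 and 9.76 RPKM in WT. In the 288 windows of the triple mutant the median log2 difference of Pol II was 0.27, against 0.24 over the arm. Of the 288, 13 were called higher (4.51%, against 2.07% over the arm and a background of 1.85%). In the 52 windows of hrde-1 it was 0.87, against −0.01 over the arm. Of the 52, 21 were called higher (40.4%, against 1.05% over the arm and a background of 0.464%) and 3 lower. In the 28 of these outside the marked windows it was 0.29, with 5 called higher (17.9%) and 3 lower. The 3 lower windows lay in the stretch near 0 in hrde-1. In the 31 windows of set-32 it was 0.13, against 0.06 over the arm. Of the 31, 2 were called higher (6.45%, against 0.829% over the arm and a background of 0.704%). The median Pol II difference in the windows of hrde-1, which include marked windows chosen from earlier hrde-1 profiles, was thus above that of the arm by more than in the triple mutant, and no test of this was made.

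Over the whole arm Pol II was called higher in 33 windows of hrde-1 (1.05%, background 0.464%) and lower in 4 (0.127%, background 0.135%), of which 3 were in the stretch near 0. The count of 4 was 10 without the WT library on oma-1 RNAi, 0 without that on gfp RNAi and 9 without the hrde-1 library on gfp RNAi. The fourth, at 13823 kb, had 21.5 and 28.9 RPKM in hrde-1 and 71.4 and 39.8 RPKM in WT (log2 −1.07). Besides the loci above, a run of 5 windows without a mark, 14688 to 14693 kb, had 15.4 and 14.6 RPKM in hrde-1 (gfp RNAi and oma-1 RNAi) and 4.99 and 6.06 RPKM in WT (mean log2 1.28). H3K9me3 in this run was 4.33, 4.07 and 4.41 times background in hrde-1 and 10.9, 2.96 and 5.61 in WT (OP50, gfp RNAi and oma-1 RNAi), so that on gfp RNAi hrde-1 was above WT.

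In the triple mutant Pol II was called higher in 65 windows (2.07%, background 1.85%) and lower in 15 (0.478%, background 0.475%), both near the shares of the genome. The split depended on the scaling, since with each library scaled to the median of all its windows the counts were 17 higher and 151 lower, and the median shift of all windows was −0.11 in place of 0.27 on the log2 scale. The count of 65 was 4 without the triple mutant library on oma-1 RNAi, 10 without that on gfp RNAi and 40 without the WT library on gfp RNAi. The count of 15 was 3, 9 and 36 without the triple mutant library on oma-1 RNAi, that on gfp RNAi and the WT library on oma-1 RNAi. The largest rise in a run was at 12172 to 12176 kb, with 9.34 and 8.3 RPKM in the triple mutant, 8.68 and 4.87 in the double mutant and 2.63 and 2.25 in WT (mean log2 1.56 over the called windows of the triple mutant). At 13247 to 13251 kb, within the strongest locus of hrde-1, Pol II was 13.7 and 13.0 RPKM in the triple mutant and 4.91 and 4.21 RPKM in WT (mean log2 1.39). At 14655 to 14663 kb, in the domain described above, it was 13.8 and 14.3 RPKM in the triple mutant, 11.5 and 10.4 in set-32 and 5.73 and 5.39 in WT (mean log2 1.28). Each of these runs of higher Pol II lost its call under at least 1 alternative that left out a library.

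In the double mutant few arm windows were called for Pol II. In the simulated data for the triple mutant, 2% of 2-fold Pol II losses reached an adjusted p under 0.05, so few calls do not mean few changes. At an unadjusted limma p under 0.05, 244 arm windows were higher in the double mutant and 136 lower. After adjustment, Pol II was called higher in 6 (0.191%, background 0.299%) and lower in 1 (0.0319%, background 0.136%). Without either double mutant library both counts were 0, and without the WT library on oma-1 RNAi they were 3 higher and 5 lower (2 higher without the WT library on gfp RNAi). The lower window, 14323 kb, lies in the domain where both marks were high, with 21.5 and 26.2 RPKM in the double mutant and 57.4 and 61.5 RPKM in WT (log2 −1.29, SE 0.21, limma adjusted p = 0.00238), and H3K9me3 of 3.71, 2.23 and 3.06 times background in the double mutant and 22.1, 6.81 and 11.5 in WT. Pol II and H3K9me3 were thus lower together in this window. The 6 higher windows, 12175, 12632, 12926, 12927, 13151 and 13152 kb, had log2 differences of 1.33 to 1.94 from WT levels of at most 3.46 RPKM. Each of them was also above WT in both triple mutant libraries.

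In set-32 the runs of called Pol II windows were all below WT. Pol II was called lower in 54 arm windows (1.72%, background 1.32%) and higher in 26 (0.829%, background 0.704%, or 16 windows without the set-32 library on gfp RNAi). Of the 54, 40 were among the 314 windows that ranked highest on the arm by WT Pol II, 10% of it. These were ranked on the same WT libraries that enter the difference, so the count is a description only. In set-32 12.7% of the 314 were called lower, against 1.72% of the arm. In the triple mutant 14 were called lower (4.46%, against 0.478% of the arm). The double mutant had 1 (0.318%, against 0.0319%) and hrde-1 had 1 (0.318%, against 0.127%). The share was thus above that of the arm in each mutant, not in set-32 alone. Of the 54, 36 lay in 5 runs, none with a GRH or GRTS mark. At 14598 to 14609 kb Pol II was 42.2 and 60.8 RPKM in hrde-1 (gfp RNAi and oma-1 RNAi), 11.9 and 13.0 in set-32, 35.7 and 66.7 in the double mutant, 18.1 and 23.3 in the triple mutant, and 42.7 and 105.0 in WT. All 11 windows of the run were called in set-32 (mean log2 −2.22), and 10 in the triple mutant (mean log2 −1.60 over 14599 to 14609 kb), so that both strains carrying the set-32 mutation were below the 3 strains without it. H3K9me3 in this run was 2.05, 2.25 and 2.98 times background in set-32 and 3.48, 1.74 and 2.44 in WT (OP50, gfp RNAi and oma-1 RNAi), overlapping.

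The other runs of set-32 were shared with the triple mutant in part. At 13280 to 13292 kb Pol II was 38.2 and 44.7 RPKM in hrde-1, 19.1 and 19.7 in set-32, 36.7 and 57.2 in the double mutant, 32.2 and 36.2 in the triple mutant, and 53.3 and 51.5 in WT (mean log2 −1.34 in set-32 over 12 windows). At 12813 to 12817 kb it was 10.9 and 16.7 in hrde-1, 5.88 and 6.29 in set-32, 14.7 and 21.8 in the double mutant, 15.3 and 17.7 in the triple mutant, and 24.6 and 18.6 in WT (−1.67). At 13294 to 13300 kb it was 21.4 and 16.6 in hrde-1, 7.66 and 7.21 in set-32, 26 and 27.0 in the double mutant, 20.4 and 19.7 in the triple mutant, and 36.3 and 17.1 in WT (−1.54). Set-32 had the lowest Pol II of the 5 strains in all 3 of these runs, on each feeding. Of these, the triple mutant had a run of lower calls only in the first, at 13280 to 13283 kb, with 30.3 and 29.3 RPKM against 58.2 and 92.1 RPKM in WT (mean log2 −1.26). The smallest run, 14405 to 14408 kb, had 31.2 and 35.8 RPKM in set-32 and 51.6 and 98.4 RPKM in WT (mean log2 −1.05). The name prefix of the set-32 and triple mutant Pol II libraries was not that of WT, and its part in these values cannot be told apart from that of the strain.

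**Figure D5:**
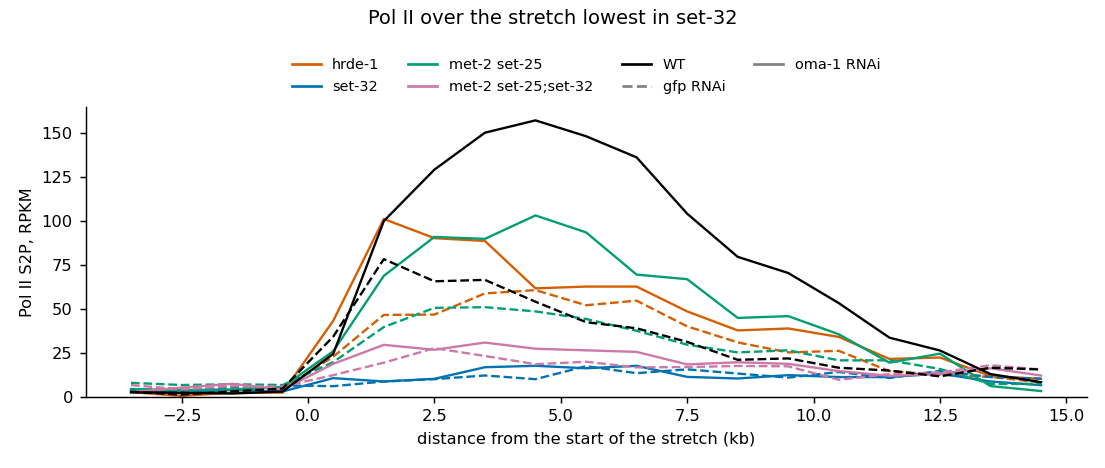
Pol II in RPKM in each 1-kb window around the run of 14598 to 14609 kb, against the distance from its start in kb, with 1 line for each library of hrde-1, set-32, the double mutant, the triple mutant and WT (dashed gfp RNAi, solid oma-1 RNAi). Over the run the libraries of set-32 average 11.9 and 13.0 RPKM and those of the triple mutant 18.1 and 23.3 RPKM, below 42.7 and 105.0 RPKM in WT.

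The 5 windows with most Pol II by the mean of both WT libraries were outside these runs. The window of 12736 kb was the highest by this mean, though not in every single library, at 122 and 126 RPKM in hrde-1, 178 and 162 in set-32, 102 and 132 in the double mutant, 92.1 and 87.7 in the triple mutant, and 123 and 136 in WT, with H3K9me3 of 1.78, 1.0 and 1.11 times background in WT. It lies 4 kb before the start of the GRH locus of 12740 kb. Neither it nor the next 4 windows by WT Pol II (14350, 14155, 13461 and 12922 kb) was called in any mutant.

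Few arm windows were called between feedings. For H3K9me3, limma called 0 windows lower or higher between oma-1 RNAi and gfp RNAi (background 0.0% and 0.001%; 12 lower and 42 higher at an unadjusted p under 0.05) and 0 between OP50 and the RNAi feedings (background 0.0% and 0.001%; 50 lower and 519 higher at an unadjusted p under 0.05). For Pol II, 7 windows had less signal on oma-1 than on gfp RNAi (0.223%, background 0.287%; 560 at an unadjusted p under 0.05), with log2 differences of −1.08 to −1.01, and limma called 0 higher (227 at an unadjusted p under 0.05). The 7 windows lie apart, at 12400, 12758, 13251, 13257, 13921, 13943 and 14541 kb, and had at most 7.26 RPKM with gfp RNAi in any strain. With another scaling the direction turned, to 0 lower and 25 higher.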

How the data were processed

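ChIP-seq values came from a single table that the authors deposited, with RPKM per 1-kb window of ce6, corrected for sequencing depth. Reads were aligned with Bowtie 0.12.7 according to the submitters' processing notes, keeping perfect alignments and sharing a read with several sites equally among them, so that repeats are averaged over their copies. Columns were matched to samples by their library names. The 5 input samples and the 7 columns holding the authors' own comparisons (ratios and p-values) were not used here.

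H3K9me3 was divided by the median of 22219 H3K9me3(−) windows of each library, which removes a difference in background but also any change common to all windows. Pol II was left as deposited. Windows with a mean under 3 RPKM were left out. Each mark was fitted with limma 3.58.1 (R 4.3.3) on log2(value + 1) with a mean-variance trend, strain and feeding as terms, and 8 (H3K9me3) or 4 (Pol II) residual degrees of freedom. For H3K9me3 the prior degrees of freedom were infinite, so that windows of equal level shared 1 estimate of the spread. Levels of the arm were compared by exact permutation tests (SciPy 1.17.1), adjusted over 28 tests. Feeding was a term of the fit because it marks the same food in every strain. Correlations between deviations of libraries on the same feeding did not all exceed 0.1: for Pol II the lowest was 0.026 and the median 0.155 (−0.155 for other feedings), and for H3K9me3 the lowest was −0.227 and the median 0.014 (0.002 for other feedings).

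Runs of at least 3 called windows (gaps of at most 1 kb) changed the same way in every feeding were ranked by mean log2 difference and the first 5 of each comparison could be named, besides all loci of GRH or GRTS windows, the longest domains and windows behind counts of few calls. Aligned reads were estimated from the value of 1 read, with 80.6% to 91.1% of values in a H3K9me3 library and 85.0% to 88.2% in a Pol II library then a whole number. The fit was tested on simulated data for the triple mutant against WT (99742 windows), with changes put only into windows above a set level. An adjusted p under 0.05 was reached by 24% of 2-fold losses and 94% of 4-fold losses of H3K9me3. For Pol II it was reached by 2% and 58% of them. These shares leave out the 2-fold limit of a call and need not hold for windows of lower level. Unchanged windows past both limits numbered 1 for H3K9me3 and 0 for Pol II. The arm and the lists were chosen with earlier results of these data known. Alternatives covered scaling, pseudocount, filter, trend, feeding term and leaving out each library or feeding.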

Additional observations from a re-analysis of the deposited data

Results flagged for a closer look

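In the H3K9me3(+) windows of the arm (117 windows, the top 5% of the genome by WT on OP50), the median ratio of hrde-1 to WT was 1.28 with gfp RNAi, against 0.488 with OP50 and 0.778 with oma-1 RNAi. In set-32 it was 1.19 with gfp RNAi, against 0.295 with OP50 and 0.816 with oma-1 RNAi. The ratio was thus above 1 with 1 feeding and below 1 with the others. Each value rests on 1 library a strain and feeding, and the difference between feedings was not tested. The ratio with OP50 shares the library that chose the windows. The WT library with gfp RNAi is the one whose H3K9me3(−) windows were at 6.13 RPKM, against 2.88 and 4.37 RPKM in the other WT libraries, and its part in these ratios was not tested.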

How the results depend on the processing

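Counts of lower H3K9me3 windows ranged with 1 library or feeding left out between 33 and 76 in hrde-1, 6 and 85 in set-32, 94 and 322 in the double mutant, and 148 and 547 in the triple mutant. On depth alone they were 113 in the double mutant, 113 in the triple mutant against WT, 32 in the triple mutant against set-32 and 0 against the double mutant. The last count was 1 with H3K9me3(−) windows from WT with gfp RNAi, with a pseudocount of 2 and without the trend. Of Pol II calls, with 1 library left out hrde-1 had 0 to 10 lower, set-32 16 to 28 higher, the double mutant 0 to 5 lower and 0 to 3 higher, and the triple mutant 3 to 36 lower and 4 to 45 higher. Without the trend Pol II calls were 2 lower and 18 higher in hrde-1, 12 lower and 2 higher in set-32, 0 and 0 in the double mutant, 3 lower and 8 higher in the triple mutant, and 0 lower between feedings. With each library scaled to the median of all its windows they were 6 lower and 3 higher in the double mutant, 151 lower and 17 higher in the triple mutant, 16 higher in set-32, and 0 lower and 25 higher between feedings. With a pseudocount of 2, hrde-1 had 2 lower and the feedings 0 lower, and with 0.5 the feedings had 12 lower. Without the stretch near 0, a setting chosen after seeing the data, hrde-1 had 1 lower. The cause of these shifts was not tested.

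Without the feeding term (no replicate block), Pol II calls were 0 lower in hrde-1, 3 higher in the double mutant and 35 higher in the triple mutant, and H3K9me3 was lower in 0 windows of the triple mutant against the double mutant. The other counts stayed within 1.5 times.

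Differences of arm levels from WT changed sign in some settings. With the mean in place of the median over windows, H3K9me3 differed by −0.149 in hrde-1 and −0.115 in set-32, and Pol II by −0.0141 RPKM in hrde-1, −0.00325 in set-32 and −0.474 in the double mutant. On depth alone the H3K9me3 median differed by 0.95 RPKM in the double mutant and 1.14 in the triple mutant. Relative to the median of all windows, Pol II differed by −0.022 in hrde-1, −0.166 in the double mutant and −0.133 in the triple mutant. With means over windows, the ratio to the left arm differed by 0.0096 (H3K9me3, hrde-1) and −0.025 (Pol II, set-32), and the ratio to the center by −0.0748 (H3K9me3, set-32), 0.00703 (Pol II, the double mutant) and 0.0872 (Pol II, triple mutant). None of these levels passed a test in any setting. None could, since the smallest exact permutation p was 0.1 for H3K9me3 and 0.333 for Pol II. On depth alone the H3K9me3 medians of set-32, the double mutant and the triple mutant did not overlap those of WT. With means over windows, their H3K9me3 ratios to the left arm (0.76, 0.789 and 0.838) did not overlap those of WT (0.685) either. For the 80 named regions and strains, 967 of 1118 alternative values kept the call, 151 lost it and 0 turned direction. Only 41 of the 80 kept it under every alternative. The others, some of them named above without such a remark, lost it under at least 1. The median arm window held 21 to 66.1 reads in H3K9me3 and 20 to 47 in Pol II. In simulated data, in windows above a set level, 24% of 2-fold losses of H3K9me3 reached an adjusted p under 0.05. For Pol II, 2% of 2-fold and 58% of 4-fold losses did so. The 2-fold limit of a call was not applied to these shares.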
